A study of Mus musculus with 34 samples.

Results

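The 40 genes described here encode the proteins with which a fat cell takes up fatty acids, makes and stores triglyceride, breaks it down again, and signals to other tissues. They were taken as a named list of adipocyte genes and followed in cultures of 3T3-L1, a mouse preadipocyte line that turns into fat-storing cells when hormones are added. The list was chosen with earlier results of the same data known. Of the 40 genes, 39 have a row among the 17515 rows of the RNA table, and Pck1 has none. Of the 10702 H3K4me3 peaks 24 are assigned to 23 of the genes, of the 87525 KDM5A peaks 300 are assigned to 38, and of the 14827 KDM5C peaks 134 are assigned to 32.

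The shKdm5ABC cells carried lentiviral short hairpins against Kdm5a, Kdm5b and Kdm5c, and the shLuc cells carried the control hairpin. Both were transduced 4 days before induction, for 24 h with 6 ug/mL polybrene. They were sampled at day 0 (post-confluent cells before induction), 4 hours and day 2 after induction with dexamethasone, insulin, IBMX and serum. RNA and H3K4me3 chromatin immunoprecipitation (ChIP) were each measured in 12 libraries, 2 replicates in each of 6 groups. KDM5A ChIP covers the same 3 times in 6 libraries and KDM5C ChIP covers day 2 in 2 libraries, and no transduction is stated for those cells. The labels number the replicates by experiment but do not say whether these were separate cultures, so p-values measure only the spread between these samples. All groups come from a single cell line.

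White adipocytes keep triglyceride in large droplets coated by perilipin 1 and CIDEC. Fatty acids enter through lipoprotein lipase, CD36 and the fatty acid binding proteins, or are built from acetyl-CoA by ACLY, the acetyl-CoA carboxylases and FASN. They are joined to glycerol by the GPAT, AGPAT, lipin and DGAT enzymes. ATGL (Pnpla2) with its co-activator ABHD5, then hormone-sensitive lipase (Lipe) and MGLL, release them again, and adiponectin, resistin, leptin and adipsin (Cfd) are secreted. KDM5 enzymes remove methyl groups from lysine 4 of histone H3, and trimethylation of that lysine (H3K4me3) marks active start sites.

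The start regions of these genes differ in how many CpG pairs they hold, and 6 are shown because their RNA, H3K4me3 and KDM5A values are described below. Each line is the 250 bases before the start site, 5' to 3' on the gene's strand, from RefSeq on GRCm38.p6, with each CpG in capitals. The peaks are on mm9, so the promoters and the peaks were not laid over each other. A sequence shown, such as that of Adipor2, need not be the start site to which the gene's peaks are assigned. They are Adipoq at 16:23146286-23146535 (plus strand), Retn at 8:3655520-3655769 (plus), Plin1 at 7:79732777-79733026 (minus), Adipor2 at 6:119388735-119388984 (minus), Abhd5 at 9:122351366-122351615 (plus) and Fasn at 11:120824548-120824797 (minus). They were taken from the members with a single promoter in the table.
Adipoq: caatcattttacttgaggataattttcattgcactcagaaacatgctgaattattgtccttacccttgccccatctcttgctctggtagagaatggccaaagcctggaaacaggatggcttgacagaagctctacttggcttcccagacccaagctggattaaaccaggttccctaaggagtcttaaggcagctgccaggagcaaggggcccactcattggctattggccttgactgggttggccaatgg
Retn: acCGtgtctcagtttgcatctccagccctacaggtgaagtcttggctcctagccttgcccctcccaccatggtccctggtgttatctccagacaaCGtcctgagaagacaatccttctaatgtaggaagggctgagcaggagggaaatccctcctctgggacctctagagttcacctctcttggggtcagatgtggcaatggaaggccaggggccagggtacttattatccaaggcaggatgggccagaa
Plin1: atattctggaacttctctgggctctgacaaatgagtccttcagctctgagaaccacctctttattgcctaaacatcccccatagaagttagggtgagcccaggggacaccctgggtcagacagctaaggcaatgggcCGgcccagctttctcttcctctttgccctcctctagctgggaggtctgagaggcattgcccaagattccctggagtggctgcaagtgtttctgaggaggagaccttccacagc
Adipor2: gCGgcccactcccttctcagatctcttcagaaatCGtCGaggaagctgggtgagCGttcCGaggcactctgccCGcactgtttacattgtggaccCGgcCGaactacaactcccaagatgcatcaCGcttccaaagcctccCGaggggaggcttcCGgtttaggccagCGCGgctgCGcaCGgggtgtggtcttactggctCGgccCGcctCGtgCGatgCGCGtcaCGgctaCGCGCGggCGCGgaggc
Abhd5: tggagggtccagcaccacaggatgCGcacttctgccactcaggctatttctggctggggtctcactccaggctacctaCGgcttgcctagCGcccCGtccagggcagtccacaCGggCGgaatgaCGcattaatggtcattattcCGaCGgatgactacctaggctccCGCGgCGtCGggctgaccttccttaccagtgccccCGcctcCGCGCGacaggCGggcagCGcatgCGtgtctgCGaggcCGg
Fasn: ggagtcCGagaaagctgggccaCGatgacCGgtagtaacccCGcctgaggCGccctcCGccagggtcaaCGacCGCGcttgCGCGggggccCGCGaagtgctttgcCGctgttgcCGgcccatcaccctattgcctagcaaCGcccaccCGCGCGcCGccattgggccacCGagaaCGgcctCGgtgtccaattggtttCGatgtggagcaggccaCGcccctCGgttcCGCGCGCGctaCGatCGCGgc
The Adipoq sequence holds 0 CpG, Plin1 holds 1 and Retn 2, whereas Abhd5 holds 22, Adipor2 27 and Fasn 33. Over the 250 bases of all 32851 promoters in the table the median was 6 CpG, 7.87% had none, 29% had 2 or fewer and 10.7% had 25 or more.

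The reference table gave 40 promoters of 300 bases (250 before and 50 after the start) for 30 of the 40 genes. Their median was 8 CpG, against 7 over all promoters. Short motifs were searched on both strands. AGGTCA, a half-site of many nuclear receptors, was in 27.5% of the member promoters and 16.3% of all. TTGCNNAA, a form of the C/EBP motif, was in 10% and 10.8%, and it was found in the Plin1 sequence above. The E-box CACGTG was in 10% and 7.15%, CCGCCC in 45% and 35.7%, and TATAAA in 2.5% and 13.6%. A direct repeat of the half-site with 1 base between (DR1), allowing 2 mismatches, was in 10% and 3.86%, and it can overlap with AGGTCA. Promoters of the same gene were counted separately and can overlap: the 4 promoters with DR1 belong to 3 genes, Aqp7, Cd36 and Plin2, and those of Aqp7 overlap. A match is only the presence of these letters in the window.

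The RNA table gives log2 values, which its name describes as normalized tags for each kb of transcript, so levels are set side by side between genes on that scale, and a difference is the log2 of a ratio. The depth of the RNA libraries is not known. Library totals, worked out from the smallest steps between ChIP values, were 8.37 to 13.6 M tags for H3K4me3, 3.87 to 17.6 M tags for KDM5A and 2.95 to 8.13 M tags for KDM5C. The knockdown was partial: Kdm5c was left at 38.0% to 39.7% of the shLuc level over the 3 times, Kdm5a at 50.7% to 58.1% and Kdm5b at 60.2% to 63.9%. A listed preadipocyte marker set, Dlk1, Pdgfra, Pdgfrb, Cd34, Ly6a, Thy1, Col1a1 and Col3a1, was detected throughout, with none of the 8 below 1 in every library. Among the other lists, Adgre1, Itgam and Ptprc of macrophages, Kdr, Pecam1, Tek and Vwf of endothelium, Ckm and Myh3 of muscle, and Ucp1 and Cox8b of brown fat were below 1 in every library.

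One RNA library stands apart for these genes. In shKdm5ABC day 0 replicate 2, 26 of 35 tested members had their highest day 0 value, or 74.3%, against 26% of all genes. There 12 members exceeded the next day 0 library by more than 1 on the log2 scale, or 34.3%, against 0.333% of all genes. The largest gaps were 3.31 for Cidec, 2.50 for Adipoq, 2.29 for Acsl1, 2.23 for Plin1 and 2.19 for G0s2. Member counts that use shKdm5ABC at day 0 are therefore also given without it, and those of the other lists are not. The cause of the high values in this library was not tested.

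Of the 39 genes with a row, 35 passed the filter on low values (a log2 value of at least 1 in at least 2 libraries) and were tested among 13534 rows. Mgll passed through day 2 libraries only. Lep, Cidea, Aqp7 and Adrb3 did not pass. Lep, the gene of leptin, stayed between -3.36 and -3.00 in all 12 libraries, and Cidea, a droplet protein of brown and white fat, between -1.94 and -1.57. Aqp7, the glycerol channel of adipocytes, lay between -0.52 and 0.54. Adrb3, the fat-cell beta adrenergic receptor, had -1.59 and -1.26 in shKdm5ABC day 2 libraries, against -2.26 and -2.05 in shLuc day 2 libraries. No test was made on these 4 genes.

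In shLuc cells most of the list rose between day 0 and day 2, and none of the tested members fell. Limma over all 12 libraries called 31 of 35 tested members higher, while 27.1% of all rows were called higher and 27.8% lower (Benjamini-Hochberg adjusted p under 0.05). The median member difference was 3.70, against -0.01 over all rows. Without Mgll, which passed the filter through day 2 libraries only, 30 of 34 were higher and the median was 3.77. None of the secreted or uptake genes was called at 4 hours. In bulk RNA, more cells of a type and more RNA per cell cannot be told apart. Preadipocyte markers moved the other way: 7 of 8 fell at day 2, with Thy1 lower by 2.38 and Pdgfrb by 3.90 (log2 -2.38 and -3.90), and their summed level was 4086 to 6178 tags per kb at day 2 and 25964 to 32545 at day 0. Their part in the result was not tested.

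The 3 tested secreted genes were near 3 before induction. Adipoq, which encodes adiponectin, had 3.00 and 3.30 at day 0, 3.39 and 3.26 at 4 hours, and 9.27 and 10.40 at day 2 in shLuc cells. Retn, the gene of resistin, had 2.70 and 2.44 at day 0, 3.61 and 2.83 at 4 hours, and 9.65 and 9.41 at day 2. Cfd, the gene of the complement protease adipsin, had 2.74 and 3.37, then 3.20 and 3.33, then 8.86 and 9.90 at the same times. In each of these genes both day 2 libraries lie far above the 4 earlier shLuc libraries. The day 2 minus day 0 differences were 6.68 for Adipoq (SE 0.76, adjusted p 4.06e-05), 6.96 for Retn (SE 0.53, adjusted p 3.45e-06) and 6.32 for Cfd (SE 0.66, adjusted p 2.33e-05), all by limma.

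**Figure D1:**
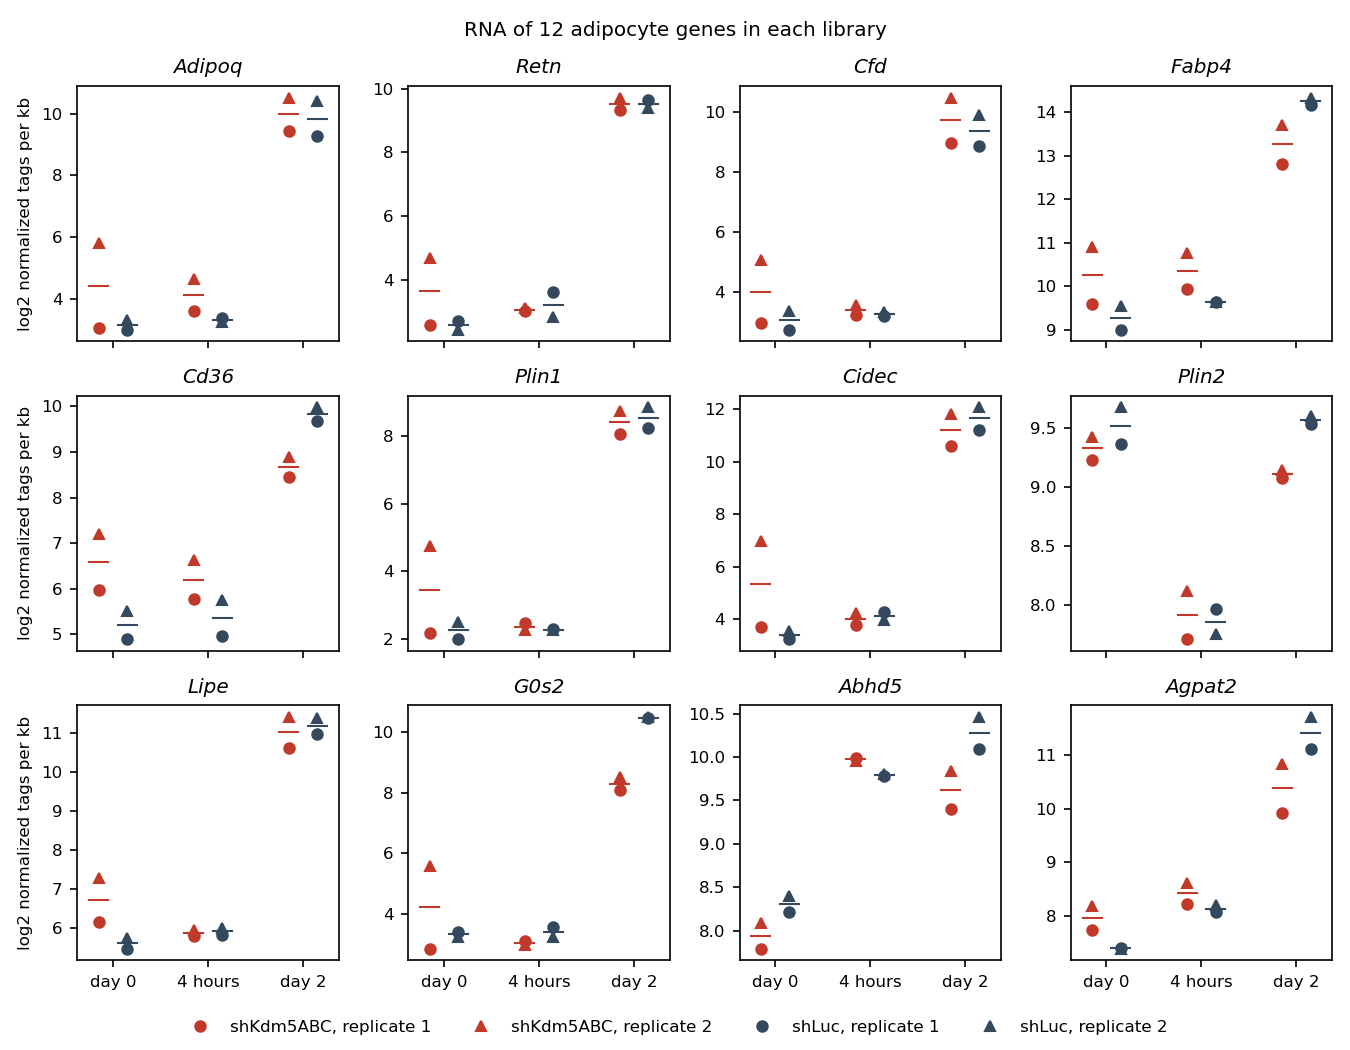
RNA of 12 members (log2 normalized tags per kb, vertical axis, own range in each panel) at day 0, 4 hours and day 2, with shKdm5ABC libraries left of shLuc libraries at each time, 1 point per library and a bar at the mean. Adipoq has 9.44 and 10.52 in shKdm5ABC and 9.27 and 10.40 in shLuc cells at day 2, while G0s2 has 8.07 and 8.52 in shKdm5ABC and 10.45 and 10.50 in shLuc cells.

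All 6 tested genes of the group of fatty acid uptake and binding, in which the glucose transporter Slc2a4 was counted, rose, by 2.07 to 6.76. Fabp4, the main fatty acid carrier of the adipocyte cytoplasm, had 9.0 and 9.54 at day 0, 9.64 and 9.64 at 4 hours, and 14.17 and 14.34 at day 2, the highest mean level of the list at day 2 (14.25). Fabp5, a related carrier, had 7.69 and 7.60, then 8.81 and 7.75, then 12.48 and 12.67. Cd36, the fatty acid translocase, had 4.89 and 5.52, then 4.96 and 5.75, then 9.68 and 9.98. These 3 genes started at different levels, and their rises were 4.98 (SE 0.43), 4.93 (SE 0.37) and 4.63 (SE 0.43). Acsl1, which activates fatty acids with coenzyme A, had 6.24 and 6.39, then 7.18 and 7.13, then 12.68 and 13.46, the largest rise of the group (6.76, SE 0.71, adjusted p 2.52e-05 by limma). Lpl, which frees fatty acids from circulating lipoproteins, was already at 11.18 and 11.43 at day 0 and reached 13.17 and 13.57 at day 2. The insulin-responsive glucose transporter Slc2a4 remained low, with 4.17 and 4.64 at day 2, against 0.86 and 0.82 at day 0.

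The droplet coat genes split. Cidec, which drives fusion of droplets, had 3.22 and 3.53 at day 0, 4.27 and 3.97 at 4 hours, and 11.23 and 12.09 at day 2, a rise of 8.28 (SE 0.83, adjusted p 1.79e-05 by limma) that is the largest of the 35 members. Plin1, the coat protein of mature droplets, had 1.98 and 2.50, then 2.27 and 2.25, then 8.25 and 8.86 (6.32, SE 0.64). Fitm2, a membrane protein needed to form droplets, moved earlier, with 6.66 and 6.90, then 8.75 and 8.93, then 10.60 and 10.86. Plin2, the coat protein found in most cell types, did the opposite early on. It had 9.36 and 9.67 at day 0, 7.96 and 7.75 at 4 hours, and 9.53 and 9.60 at day 2, so that it fell at 4 hours (-1.66, SE 0.16, adjusted p 3.82e-05) and differed by 0.05 at day 2 (SE 0.16, adjusted p 0.829 by limma). Plin4, a coat protein of new droplets, had 8.0 and 8.20, then 6.91 and 7.64, then 8.85 and 9.43. Its fall at 4 hours was -0.82 (adjusted p 0.0432 by limma). That call was lost with no filter on low values (adjusted p 0.0807) and with all libraries set to the same median (-0.76, adjusted p 0.0570). It was also lost without any of shLuc day 0 replicate 1, shLuc day 0 replicate 2 or shLuc 4-hour replicate 1 (-0.93, -0.72 and -0.46). The rise of Plin4 at day 2 (1.04, adjusted p 0.0116 by limma) was lost without shLuc day 0 replicate 1 or shLuc day 2 replicate 2 (0.94 and 0.75). Bscl2, which encodes seipin, rose least among the called members, by 0.95 (SE 0.22), with 5.72 and 5.18, then 5.94 and 5.52, then 6.27 and 6.53.

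Of the 5 tested genes of lipolysis, Lipe, G0s2, Pnpla2 and Abhd5 rose by day 2. Mgll, which splits the last fatty acid from the glycerol, was below 0 in all libraries before day 2 and had 2.59 and 3.60 in shLuc cells at day 2, so that the filter on low values fixed its direction. Lipe, the hormone-sensitive lipase, had 5.47 and 5.75 at day 0, 5.83 and 6.01 at 4 hours, and 10.98 and 11.40 at day 2 (5.58, SE 0.35, adjusted p 1.27e-06 by limma). G0s2, an inhibitor of ATGL, had 3.40 and 3.24, then 3.56 and 3.25, then 10.45 and 10.50 (7.16, SE 0.64). Pnpla2, which encodes ATGL itself and is represented by a transcript listed as non-coding, had 6.53 and 6.89, then 7.70 and 7.63, then 10.56 and 11.40 (4.27, SE 0.37). The co-activator Abhd5 had 8.21 and 8.40, then 9.79 and 9.81, then 10.09 and 10.46, so that most of its rise (1.97, SE 0.17) was present by 4 hours (1.49, SE 0.17, adjusted p 1.26e-04 by limma).

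All 6 tested genes of triglyceride synthesis rose as well, by 1.47 to 5.46. Dgat2, which adds the last fatty acid, had 5.23 and 5.56 at day 0, 7.52 and 7.64 at 4 hours, and 10.58 and 11.14 at day 2. Dgat1, the other enzyme of that step, had 7.70 and 7.18, then 9.22 and 8.30, then 10.41 and 10.70. Agpat2, which makes phosphatidic acid, had 7.41 and 7.39, then 8.07 and 8.21, then 11.12 and 11.71. The 2 DGAT genes were called higher already at 4 hours, by 2.18 (adjusted p 0.00627) and 1.32 (adjusted p 0.0074), and Agpat2 was called only with the replicate block (0.74, adjusted p 0.0654 by limma, or 0.0041 with the block). Gpd1, which supplies glycerol 3-phosphate, had 2.59 and 2.78, then 3.30 and 2.96, then 7.59 and 8.70.

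Of the 7 tested genes of fatty acid synthesis 4 rose, the lowest share among the roles. Pcx, the pyruvate carboxylase, had 8.08 and 8.80 at day 0, 9.03 and 9.38 at 4 hours, and 12.05 and 12.51 at day 2. Fasn, the fatty acid synthase, had 8.32 and 8.74, then 9.64 and 9.98, then 10.73 and 11.48. Thrsp, a nuclear protein linked to lipogenesis, had 2.02 and 1.66, then 1.68 and 1.90, then 4.01 and 4.79. Me1, the malic enzyme that supplies NADPH, had 6.58 and 7.03, then 6.29 and 6.79, then 7.65 and 8.36, and its rise of 1.20 was lost without shLuc day 2 replicate 2 (0.84, adjusted p 0.0568 by limma). The enzymes that make malonyl-CoA and its precursor were at about their day 0 level at day 2. Acly, the ATP citrate lyase, had 9.39 and 9.59, then 10.32 and 10.84, then 9.59 and 9.72, and was higher at 4 hours (1.09, adjusted p 0.00277) but not called at day 2 (0.16, adjusted p 0.561). Acaca, the cytosolic acetyl-CoA carboxylase, had 5.93 and 6.05, then 6.20 and 6.15, then 5.95 and 6.27. Acacb, the mitochondrial form, had 4.84 and 4.99, then 3.75 and 3.67, then 4.76 and 4.97, and fell at 4 hours (-1.20, SE 0.22, adjusted p 0.0018 by limma).

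The remaining pair also rose. Adipor2, a receptor of adiponectin, had 8.33 and 8.60 at day 0, 9.53 and 9.89 at 4 hours, and 12.07 and 12.27 at day 2 in shLuc cells, and had the lowest adjusted p of the list (3.70, SE 0.21, adjusted p 8.44e-07 by limma). Car3, a carbonic anhydrase abundant in fat, had 1.22 and 1.08, then 1.08 and 1.29, then 3.43 and 3.67. At 4 hours, 8 of 35 tested members were called higher and 3 lower in shLuc cells, where 20.7% of all rows were higher and 21.6% lower. The 8 were Fitm2, Abhd5, Adipor2, Acly, Dgat2, Dgat1, Lpin1 and Fasn, and the 3 were Plin2, Acacb and Plin4. Among the 8, Fasn was lost without shLuc day 0 replicate 1 or shLuc 4-hour replicate 2, Lpin1 without shLuc day 0 replicate 1, and Dgat1 without shLuc day 0 replicate 2 or shLuc 4-hour replicate 1, with adjusted p 0.0611 to 0.0822. With the replicate block, which called 28.4% of all rows higher and 30.1% lower, Pnpla2, Agpat2, Gpam and Pcx were called higher as well, with adjusted p 0.0014 to 0.0043, against 0.0620 to 0.118 without it.

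The same course was seen in shKdm5ABC cells, in which 29 of 35 tested members were higher and 0 lower at day 2 than at day 0, where 22.0% of all rows were higher and 23.1% lower. Without Mgll the count was 28 of 34. The median difference was 2.58, and without shKdm5ABC day 0 replicate 2 it was 2.95 with the same count. Me1 was not called without shKdm5ABC day 0 replicate 1 or shKdm5ABC day 2 replicate 2 (adjusted p 0.0741 and 0.0924), and Acly (0.34) was called only with the replicate block (adjusted p 0.24, or 0.0438 with it). Plin4 (0.36, adjusted p 0.35, or 0.0195 with the replicate block) and Bscl2 (0.44) were called in shLuc cells but not here, and the difference between the cell groups was not called for either (adjusted p 0.591 and 0.606), though with the block it was for Plin4 (0.0316). At 4 hours 7 members were higher and 3 lower (22.4% and 23.7% of all rows), and the 3 lower ones were again Plin2, Plin4 and Acacb. Plin4 was not called without shKdm5ABC day 0 replicate 2 or shKdm5ABC 4-hour replicate 1 (adjusted p 0.109 and 0.115), nor was Acacb without shKdm5ABC day 0 replicate 2 or shKdm5ABC 4-hour replicate 2 (adjusted p 0.154 and 0.146) or with only the compared groups in the fit (0.0565). Among the higher members Dgat1 was lost without shKdm5ABC day 0 replicate 2 or shKdm5ABC 4-hour replicate 1, and Pnpla2 without shKdm5ABC day 0 replicate 1 or either 4-hour library. With the replicate number as a block the counts at 4 hours were 11 and 5, with 29.9% and 31.1% of all rows, and without shKdm5ABC day 0 replicate 1 a total of 16 members was called. The block added Fasn, Acaca, Gpam and Agpat2 to the higher and Lipe and Me1 to the lower members. Without shKdm5ABC day 0 replicate 2 the counts were 8 and 1, and the median member difference was 0.47, against 0.00 with that library.

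Before induction and at 4 hours no member was called between shKdm5ABC and shLuc cells. At day 0 limma called 0 of 35 tested members (1.51% of all rows in either direction). The shKdm5ABC library was higher in both replicate numbers in 20 members, or 57.1%, against 37.8% of all genes. Replicates of the same number deviate together in these data, and with the replicate number as a block 5 members were higher (4.38% of all rows) and 1 was lower (5.05%). Cd36 had 5.98 and 7.20 in shKdm5ABC cells, against 4.89 and 5.52 in shLuc cells (1.38, SE 0.43, adjusted p 0.185, or 0.0013 with the block). Lipe had 6.15 and 7.30, against 5.47 and 5.75 (1.11, adjusted p 0.184, or 0.0084 with the block), and Fabp4 had 9.60 and 10.90, against 9.0 and 9.54 (0.98, adjusted p 0.379, or 0.0322). In these 3 genes the shKdm5ABC libraries lie above both shLuc libraries, and replicate 2, the library that stands apart, is the higher of the knockdown pair. Plin4 had 8.66 and 9.0 in shKdm5ABC cells, against 8.0 and 8.20 in shLuc cells, and Pcx had 8.80 and 9.81, against 8.08 and 8.80. Me1 had 5.85 and 6.19, against 6.58 and 7.03. The median member difference at day 0 was 0.07 between the libraries numbered 1 and 0.79 between those numbered 2, and it was at 0.01 in both over all genes. Without shKdm5ABC day 0 replicate 2 no member was called by the fit, and 4 were higher without shKdm5ABC day 0 replicate 1.

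Some genes of the comparison lists were called at day 0, where 1.51% of all rows were called in either direction. With the block 4.38% of all rows were higher and 5.05% lower. Of 12 adipogenic factors, 2 were higher in shKdm5ABC cells, and 5 with the block. Klf5, a factor that acts early in adipogenesis, had 6.84 and 7.19 in shKdm5ABC cells, against 5.73 and 5.86 in shLuc cells (1.22, SE 0.15, adjusted p 0.00583 by limma). Cebpa, which encodes C/EBP alpha, had 6.55 and 7.17, against 5.63 and 5.91 (1.09, SE 0.22, adjusted p 0.0466). For Klf5 and Cebpa the higher shKdm5ABC value was in replicate 2, the library that stands apart. The comparison lists are given only with that library. Of 12 tested further secreted proteins, Rarres2 (chemerin) was higher (1.29, adjusted p 0.0158), with 4 higher and 1 lower under the block, and of 41 tested further lipid genes none was called, with 2 lower under the block. Cd68, listed as a macrophage marker, was also higher (1.5, adjusted p 0.0144), and the summed level of the macrophage list was 162 to 171 tags per kb in shKdm5ABC cells, against 93.1 to 119 in shLuc cells, while Adgre1, Itgam and Ptprc stayed below 1. Its part in the member values was not tested.

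At 4 hours limma called 0 of 35 tested members (1.44% of all rows in either direction). With the replicate block 3 were higher (4.58% of all rows) and 1 was lower (5.10%). Adipor2 had 10.11 and 10.33 in shKdm5ABC cells, against 9.53 and 9.89 in shLuc cells (0.51, SE 0.21, adjusted p 0.33, or 0.0064 with the block). Cd36 had 5.77 and 6.63, against 4.96 and 5.75, and Plin4 had 7.63 and 8.06, against 6.91 and 7.64. Me1 had 5.47 and 5.70, against 6.29 and 6.79 (-0.95, adjusted p 0.173, or 0.0014 with the block). Me1 is the only one of the 35 tested members in which both shKdm5ABC libraries lay below both shLuc libraries at each of the 3 times.

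At day 2 most members had lower mean values in shKdm5ABC than in shLuc cells. The median difference was -0.86 over the 6 tested uptake genes (Slc2a4 included), -0.64 over the 6 of triglyceride synthesis, -0.37 over the 5 of lipolysis and 0.15 over the 3 secreted genes. Differences between roles were not tested. The mean was higher in 7 of 35 tested members and the median difference was -0.45. In 26 of 35 tested members, or 74.3%, the shKdm5ABC library was lower in both replicate numbers, against 40.7% of all genes. Limma called 1 member lower, Abhd5, and none higher, where 5.66% of all rows were higher and 3.34% lower. With the replicate block 13 members were lower and none higher, where 13.9% of all rows were higher and 14.2% lower. Abhd5 had 9.40 and 9.84 in shKdm5ABC cells, against 10.09 and 10.46 in shLuc cells (-0.66, SE 0.17, adjusted p 0.0450, or 0.0022 with the block). Its call was lost without shLuc day 2 replicate 1, shLuc day 2 replicate 2 or shKdm5ABC day 2 replicate 1 (adjusted p 0.0531, 0.256 and 0.302), with only the compared groups in the fit (0.189) and with no filter on low values (0.0743), and without shKdm5ABC day 2 replicate 2 a total of 3 members was called.

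The largest day 2 difference was that of G0s2. It had 8.07 and 8.52 in shKdm5ABC cells, against 10.45 and 10.50 in shLuc cells (-2.18, SE 0.64, adjusted p 0.0618, or 0.0177 with the block). Fabp5 had 11.13 and 11.61, against 12.48 and 12.67 (-1.20, SE 0.37, adjusted p 0.0691, or 0.0274). Cd36 had 8.45 and 8.90, against 9.68 and 9.98 (-1.16, SE 0.43, adjusted p 0.126, or 0.0014). In all 3 both knockdown libraries lie below both shLuc libraries. Agpat2 had 9.92 and 10.84 in shKdm5ABC cells, against 11.12 and 11.71 in shLuc cells (-1.04, SE 0.29, adjusted p 0.0533, or 0.0020 with the block). Fabp4 had 12.82 and 13.71, against 14.17 and 14.34 (-0.99, SE 0.43, adjusted p 0.183, or 0.0131). With the block, Cd36 and Fabp4 were thus called higher than in shLuc cells at day 0 and lower at day 2.

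The other members called lower with the block at day 2 were from several roles. Me1 had 6.84 and 7.42 in shKdm5ABC cells, against 7.65 and 8.36 in shLuc cells (-0.87). Fasn had 9.85 and 10.81, against 10.73 and 11.48 (-0.77), and Gpam, the first enzyme of glycerolipid synthesis, had 7.94 and 8.44, against 8.32 and 8.69 (-0.32), both with overlap between the groups. Car3 had 2.84 and 2.99, against 3.43 and 3.67, and Plin2 had 9.07 and 9.14, against 9.53 and 9.60. The droplet-forming Fitm2 had 9.87 and 10.44, against 10.60 and 10.86, and Adipor2 had 11.41 and 11.81, against 12.07 and 12.27. Their adjusted p was 0.0888 to 0.36 without the block and 0.000868 to 0.0386 with it.

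The secreted genes reached the same range in both groups at day 2. Adipoq had 9.44 and 10.52 in shKdm5ABC cells, against 9.27 and 10.40 in shLuc cells (0.15, SE 0.76). Retn had 9.35 and 9.72, against 9.65 and 9.41 (0.00, SE 0.53), and Cfd had 8.96 and 10.48, against 8.86 and 9.90 (0.34, SE 0.66). Plin1 had 8.07 and 8.75, against 8.25 and 8.86 (-0.14, SE 0.64), and Cidec had 10.59 and 11.81, against 11.23 and 12.09 (-0.46, SE 0.83). In each of these 5 genes the groups overlap. Standard errors were 0.53 to 0.83 without the replicate block and 0.38 to 0.62 with it, and none of the 5 was called with the block (adjusted p 0.555 to 0.998 by limma). In the same day 2 libraries the summed preadipocyte markers were at 6759 to 9513 tags per kb in shKdm5ABC cells and 4086 to 6178 in shLuc cells. Of those 8 markers Pdgfra was called higher (1.19, adjusted p 0.0230 by limma, 5.66% of all rows higher) and 5 were higher with the block (13.9%). The part of these markers in the lower member values was not tested.

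**Figure D2:**
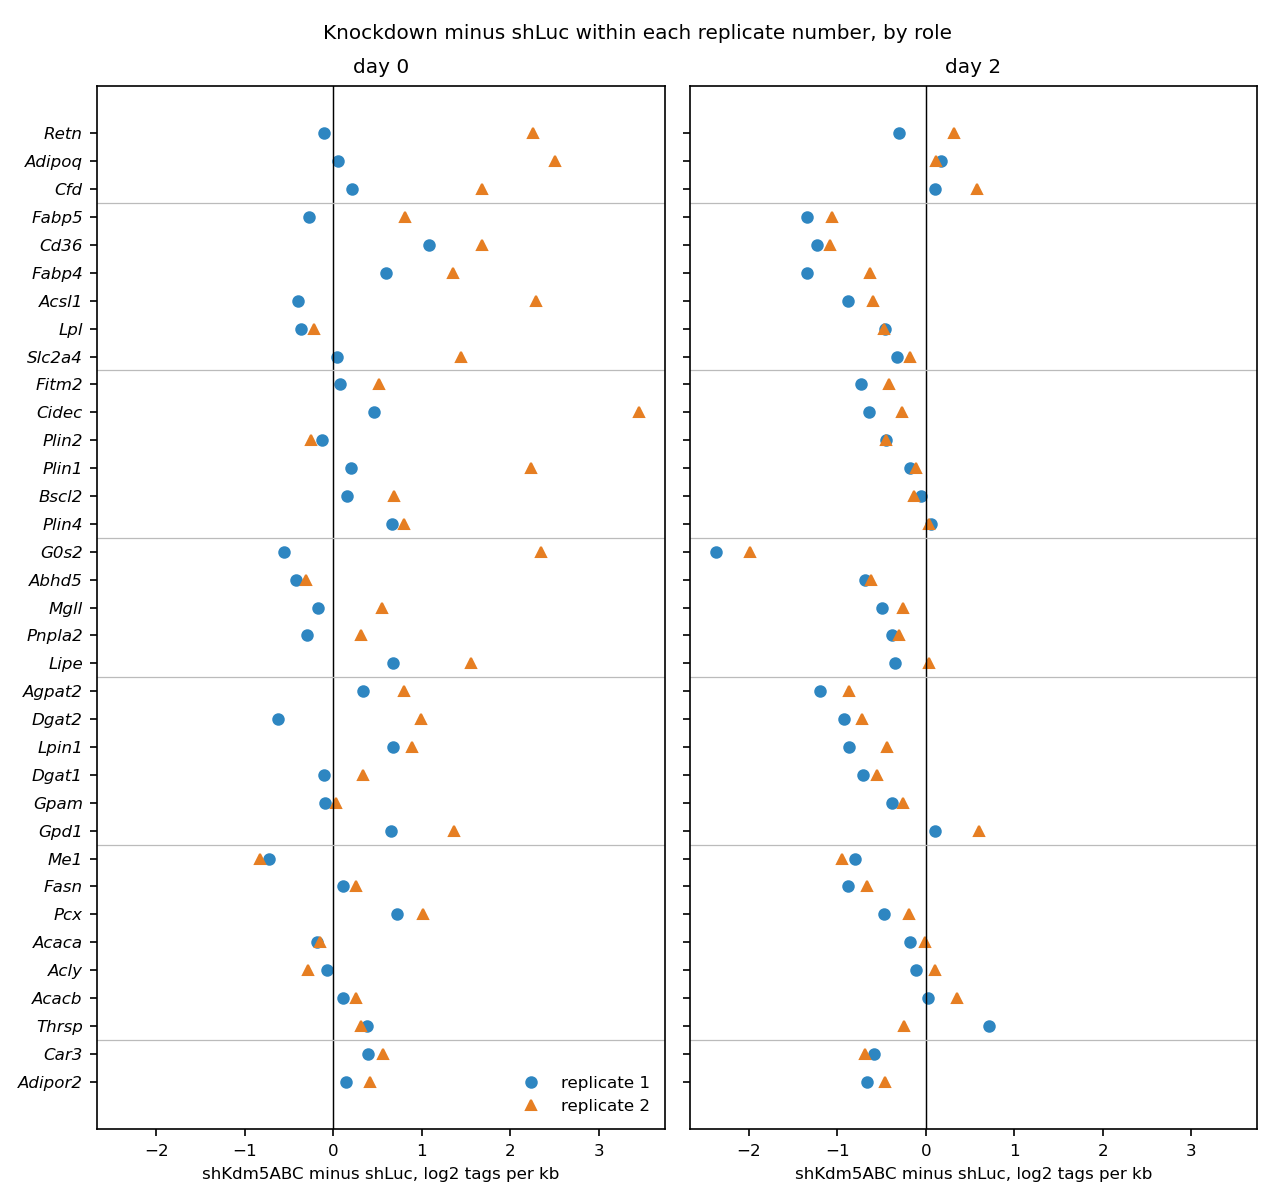
Difference in RNA between shKdm5ABC and shLuc cells (log2, horizontal axis) of the 35 tested members, by role, at day 0 and day 2, with 1 point for each replicate number. At day 2 both points of 26 members lie below 0, and at day 0 both points of 20 members lie above 0.

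Factors that drive the adipocyte genes showed a mixed pattern at day 2. In shLuc cells 11 of 12 adipogenic factors rose and 1 fell by day 2, where 27.1% of all rows were higher and 27.8% lower. Cebpa was higher by 4.12 and Klf5 by 2.11. Between shKdm5ABC and shLuc cells at day 2, Ebf1 (0.73, adjusted p 0.0191) and Klf5 (0.65, adjusted p 0.0282) were higher, where 5.66% of all rows were higher and 3.34% lower. The block called 13.9% of all rows higher and 14.2% lower. With the block Pparg (-0.71), Cebpa (-0.72) and Cebpb (-0.51) were lower, with adjusted p 0.0079, 0.0067 and 0.0051, against 0.198, 0.0743 and 0.0709 without it. Pparg, the nuclear receptor at the head of the adipocyte programme, had 10.00 and 10.75 in shKdm5ABC cells, against 10.85 and 11.32 in shLuc cells. Of 41 tested further lipid genes, 19 rose and 7 fell in shLuc cells by day 2, against 27.1% and 27.8% of all rows. Srebf1, a factor of lipid synthesis, was higher by 2.06 and the lysosomal lipase Lipa lower by 1.66 (log2 -1.66). Between the groups at day 2 only Akt2 of that list was called (-0.62, adjusted p 0.0450), and with the block 3 were higher and 6 lower, against 13.9% and 14.2% of all rows. Of 12 tested further secreted proteins, 6 rose and 2 fell in shLuc cells by day 2, against the same 27.1% and 27.8% of all rows, led by Lcn2 (5.72) and Angptl2 (-2.35).

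Whether the knockdown difference itself changed between day 2 and day 0 was tested as the difference of the 2 effects. Limma called 0 of 35 tested members (0.310% of all rows in either direction), and the median was -0.87, against -0.01 over all rows. With the replicate block 12 members were called, all with a lower effect at day 2 than at day 0 (4.76% of all rows higher and 2.91% lower). The largest of them were G0s2 (-3.08), Cd36 (-2.54) and Fabp4 (-1.96). Day 0 replicate 2 of shKdm5ABC enters each of these differences, and without it the median member difference was -0.32 and 0 members were called.

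The H3K4me3 table names its columns Control_D0, Control_4h, Control_D2, KDM5_KD_D0, KDM5_KD_4h and KDM5_KD_D2, with 2 libraries each. For these genes the columns do not follow the RNA of the groups they name, so results are given by column name, and whether the names match the libraries was not tested. The columns KDM5_KD_4h and KDM5_KD_D2 hold the gain in signal at the adipocyte genes. In 13 of 23 members with a start-site peak all 4 libraries of these 2 columns lie above all 8 other libraries, against 1.49% of all genes. The column pair was picked after its values were seen, so that count is a description. The 13 are Adipoq, Retn, Fabp4, Plin1, Cidec, Lipe, Pnpla2, G0s2, Dgat1, Dgat2, Lpin1, Pcx and Adipor2. The RNA of all 13 rose at day 2 in both shKdm5ABC and shLuc cells, whereas both columns of the H3K4me3 gain carry the KDM5_KD name.

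Values are tags per peak, scaled by the authors' tool to a common total of 10000000 tags per library. The Adipoq peak (mm9 16:23146572-23149604) had 13.1 and 9.57 tags in KDM5_KD_D0, 174 and 161 in KDM5_KD_4h and 125 and 65.7 in KDM5_KD_D2, against 17.4 and 8.68 in Control_D0, 13.4 and 12.8 in Control_4h and 24.2 and 10.5 in Control_D2. The Plin1 peak (7:86875443-86877873) had 10.7 and 11.8, 111 and 140, and 139 and 77.1 in the KDM5_KD columns in the same order, against 8.10 and 8.68, 5.57 and 4.65, and 14.1 and 8.22 in the Control columns. These 2 peaks were near their lowest values in 8 libraries. The Cidec peak (6:113381106-113385550) had 30.9 and 42.0, 350 and 389, and 451 and 258 in the KDM5_KD columns, against 37.0 and 26.9, 39.0 and 26.8, and 36.4 and 23.2 in the Control columns. The Retn peak (8:3655061-3658260) had 19.0 and 16.9, 249 and 176, and 265 and 118, against 22.0 and 26.0, 24.5 and 18.6, and 24.2 and 12.7. Adipor2 (6:119364672-119367778) had 32.1 and 22.8, 359 and 257, and 257 and 112, against 18.5 and 20.8, 36.8 and 10.5, and 44.5 and 20.2. In all 5 genes the 4 libraries of KDM5_KD_4h and KDM5_KD_D2 are the high ones.

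Lipe, with a peak at 7:26170992-26175322, had intermediate values in further columns. It had 96.3 and 126 tags in KDM5_KD_D0, 596 and 601 in KDM5_KD_4h and 1174 and 701 in KDM5_KD_D2, against 38.2 and 46.9 in Control_D0, 114 and 121 in Control_4h and 40.4 and 40.4 in Control_D2. The Fabp4 peak (3:10204773-10208609) had 79.7 and 127, 408 and 272, and 259 and 181 in the KDM5_KD columns, against 60.2 and 40.8, 152 and 126, and 49.5 and 36.6 in the Control columns. In both genes KDM5_KD_D0 and Control_4h lie above Control_D0 and Control_D2. The short G0s2 peak (1:195098644-195099144) had 3.57 and 5.15, 66.8 and 48.0, and 16.7 and 8.57, against 1.16 and 3.47, 5.57 and 3.49, and 2.02 and 2.24.

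**Figure D3:**
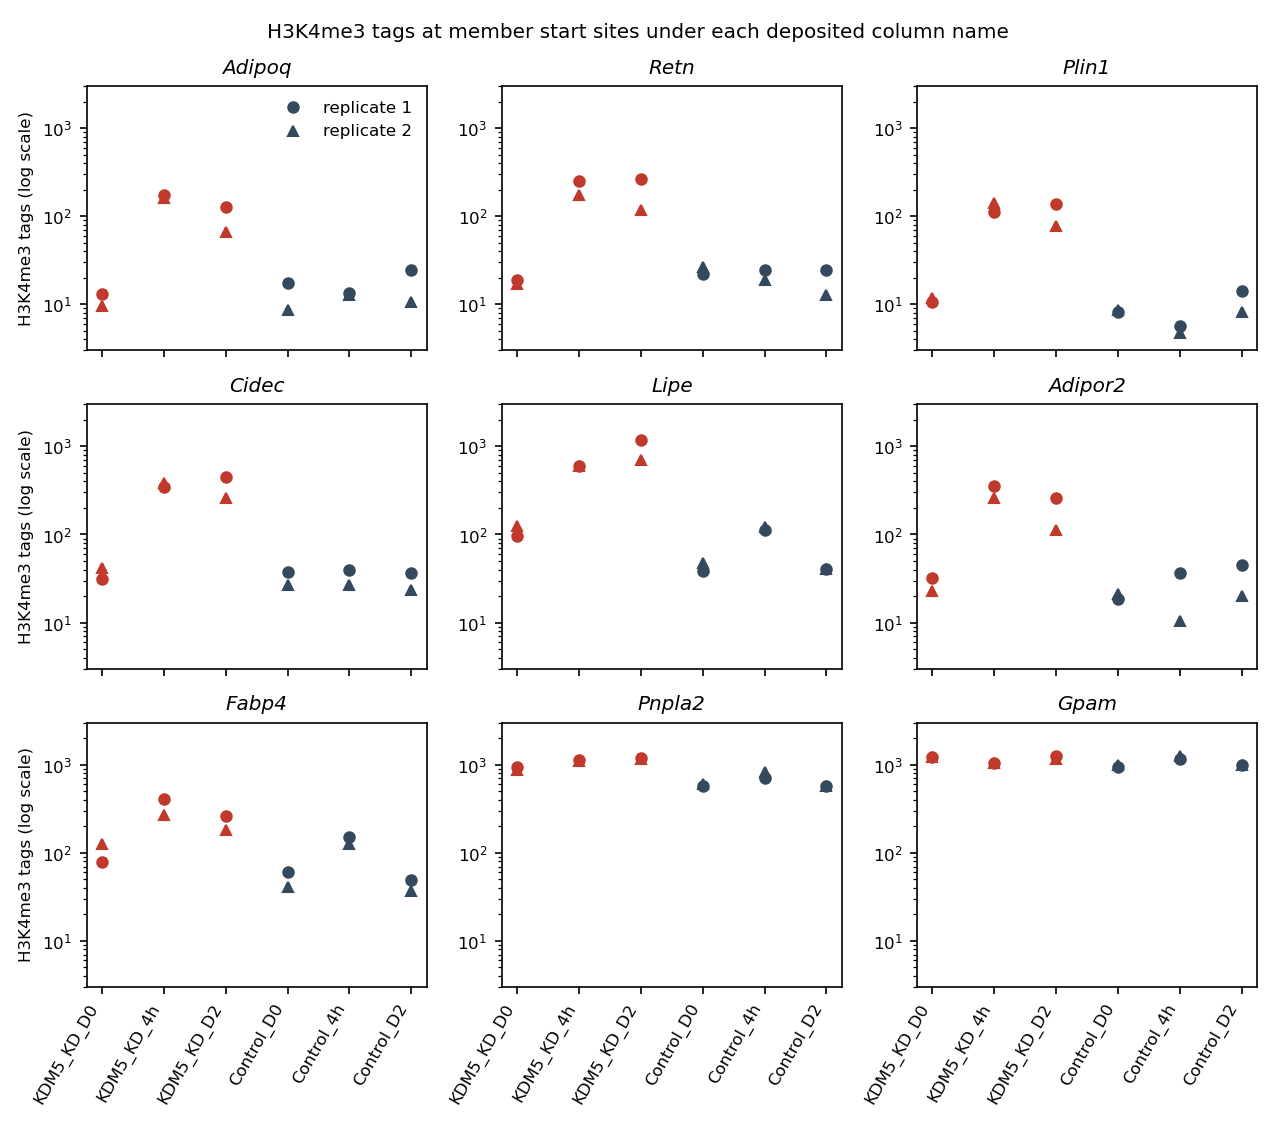
H3K4me3 tags (log axis, scaled tags per start-site peak) of 9 members by deposited column name, with the 3 KDM5_KD columns (red) left of the 3 Control columns (dark), 1 point per library. Adipoq reaches 65.7 to 174 tags in KDM5_KD_4h and KDM5_KD_D2 and 8.68 to 24.2 tags in the 8 other libraries, while Gpam stays between 935 and 1261 tags in all 12.

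The comparisons below share columns, Control_D0 most often. Set against Control_D0, limma called 16 of 23 members higher in KDM5_KD_4h (5.49% of all peaks) and 20 higher in KDM5_KD_D2 (24.3%). The largest rises in KDM5_KD_4h were those of G0s2 (4.21, SE 0.51), Adipor2 (3.88, SE 0.60), Lipe (3.79, SE 0.25) and Plin1 (3.75, SE 0.38), with adjusted p 6.3e-04, 0.0021, 5.6e-05 and 2.9e-04. The G0s2 peak had at most 5.57 tags outside KDM5_KD_4h and KDM5_KD_D2. A peak that low elsewhere may be listed only through its high columns, which would fix the direction of its rise. Against the Control column of the same name, 13 were higher and 2 lower in KDM5_KD_4h (1.62% and 34.3% of all peaks), and 18 were higher in KDM5_KD_D2 (23.8%). The differences from Control_4h were 4.37 for Plin1 (SE 0.38), 3.58 for Adipoq (SE 0.48), 3.47 for Cidec (SE 0.36) and 3.23 for Retn (SE 0.43), and the 2 lower members were Plin4 (-1.33) and Bscl2 (-0.73). Fabp4 was among the 13 (1.26, adjusted p 0.0135 by limma) and was not called without Control_4h replicate 2 or KDM5_KD_4h replicate 1. Bscl2 was not called without any 1 of the 4 libraries of these columns (adjusted p 0.0808 to 0.147) or at equal medians (-0.49, adjusted p 0.144), and Pcx, also among the 13, was not called without Control_4h replicate 1 or KDM5_KD_4h replicate 1 (adjusted p 0.187 and 0.206). Lipe was called there through its highest peak, and with the peak nearest its start site it was not called in KDM5_KD_4h minus Control_4h (0.54, adjusted p 0.482). Between KDM5_KD_D2 and KDM5_KD_4h, Plin4 (0.78) and Bscl2 (0.90) were higher and G0s2 (-2.15) and Fabp5 (-0.57) lower (29.6% and 0.0561% of all peaks). Of these 4 only Plin4 was called without KDM5_KD_4h replicate 1 or without KDM5_KD_D2 replicate 2, and Bscl2 was not called without KDM5_KD_D2 replicate 1 or at equal medians. With the replicate block 6 members were higher and 6 lower, where 48.9% of all peaks were higher and 1.72% lower. Lpl was called against Control_D0 only with the block, which called 20.5% of all peaks higher in KDM5_KD_4h and 52.5% in KDM5_KD_D2. It was higher in KDM5_KD_4h (0.73, adjusted p 0.124, or 1.21e-06 with the block) and KDM5_KD_D2 (0.59, adjusted p 0.163, or 7.71e-06).

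These counts stand beside a shift of the whole table. The median of all peaks differed by 0.25 in KDM5_KD_D2 and 0.03 in KDM5_KD_4h against Control_D0, and by -0.23 in KDM5_KD_4h against Control_4h. Inside peaks lay 7.88 to 8.32 M tags in KDM5_KD_D0, KDM5_KD_D2 and Control_4h, and 6.56 to 6.81 M tags in KDM5_KD_4h, Control_D0 and Control_D2. With all libraries set to the same median, the calls over all peaks were 990 higher and 2488 lower for KDM5_KD_4h minus Control_4h, in place of 173 and 3666. They were 907 and 169 for KDM5_KD_D2 minus Control_D0, in place of 2598 and 47, and 1014 and 126 for KDM5_KD_D0 minus Control_D0, in place of 3499 and 21. The members then gave 17, 15 and 6 calls, and no called member value changed sign.

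The other columns moved some of the broader, higher peaks. In KDM5_KD_D0 minus Control_D0, 14 members were higher (32.7% of all peaks, median shift 0.29), in KDM5_KD_D0 minus Control_D2 12 were (33.1%, 0.29), and in Control_4h minus Control_D0 11 were (27.8%, 0.28). These shares of members are read against those of all peaks, and at the same median the counts were 6, 4 and 2. The first count was 9 without Control_D0 replicate 1 or without KDM5_KD_D0 replicate 2. The second was 5 without Control_D2 replicate 1 or KDM5_KD_D0 replicate 1 and 7 without Control_D2 replicate 2 or KDM5_KD_D0 replicate 2. The third was 5 without Control_D0 replicate 1, 6 without Control_4h replicate 2 and 17 with the replicate block, where 59.2% of all peaks were higher. Control_D2 and Control_D0 differed in 1 member by limma. With the block 4 members were higher and 2 lower in that comparison, where 8.29% of all peaks were higher and 7.14% lower.

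That member is Plin4, whose peak (17:56246209-56250764) moved unlike the rest. It had 1292 and 1192 tags in KDM5_KD_D0, 671 and 683 in KDM5_KD_4h and 1173 and 1157 in KDM5_KD_D2, against 778 and 781 in Control_D0, 1738 and 1678 in Control_4h and 316 and 345 in Control_D2. Both libraries of each column lie close together, and Control_D2 was lower than Control_D0 by 1.24 (log2 -1.24, SE 0.09, adjusted p 2.2e-04 by limma, 0.663% of all peaks lower). Fasn and Abhd5 carried signal in every column. Whether the CpG count of a promoter goes with its H3K4me3 was not tested. Abhd5 (9:122259921-122263448) ranged from 506 to 883 tags, Fasn (11:120681270-120687384) from 1094 to 1969 and Gpam (19:55172705-55175413) from 935 to 1261 over the 12 libraries.

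KDM5A ChIP gave a start-site peak for 28 of the 40 genes, that is a peak that holds the start site or whose edge is within 1000 bp of it. Most members carried less KDM5A than other genes. The member median was 119 and 47.2 tags at day 0, 116 and 58.1 at 4 hours and 116 and 104 at day 2, against 218 and 96.0, 194 and 111, and 218 and 164 over 11818 genes. Some members carried high KDM5A at all 3 times. Gpam (19:55172778-55174782) had 486 and 179 tags at day 0, 373 and 158 at 4 hours and 490 and 354 at day 2. Fasn (11:120684118-120687360) had 424 and 176, then 323 and 189, then 361 and 296, and Lpl (8:71403557-71407250) had 367 and 219, then 314 and 220, then 288 and 287. Dgat1 (15:76337415-76343256) had 369 and 136, then 376 and 217, then 415 and 432, and Pcx (19:4509668-4512284) had 342 and 136, then 391 and 253, then 388 and 330. Replicate 2 of day 0 was lower than replicate 1 in these 5 genes, and it held 1.94 M tags in all peaks, while replicate 1 held 4.05 M tags. The input library had 16.2 to 36.9 tags at these peaks.

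Another set of members had few KDM5A tags before day 2. Adipoq (16:23145153-23147958) had 13.7 and 14.2 tags at day 0, 12.6 and 5.17 at 4 hours and 63.6 and 72.7 at day 2, with 7.20 in input. Retn (8:3654107-3658100) had 37.1 and 22.2, then 41.9 and 12.9, then 161 and 104, with 15.3 in input. Plin1 (7:86876507-86878005) had 8.78 and 5.11, then 4.19 and 7.75, then 54.5 and 39.4, with 4.50 in input. In these 3 genes both day 2 libraries lie above all 4 earlier libraries. Cidec (6:113385094-113385594) had 3.90 and 2.84, then 3.35 and 2.58, then 25 and 30.9. A peak that low before day 2 may be listed only through its day 2 libraries, which would fix the direction of its rise. Such peaks also enter the count of members highest at day 2 given below. Adipor2 (6:119367695-119369719) moved earlier, with 16.6 and 11.4 at day 0, 53.6 and 46.5 at 4 hours and 70.4 and 73.4 at day 2.

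**Figure D4:**
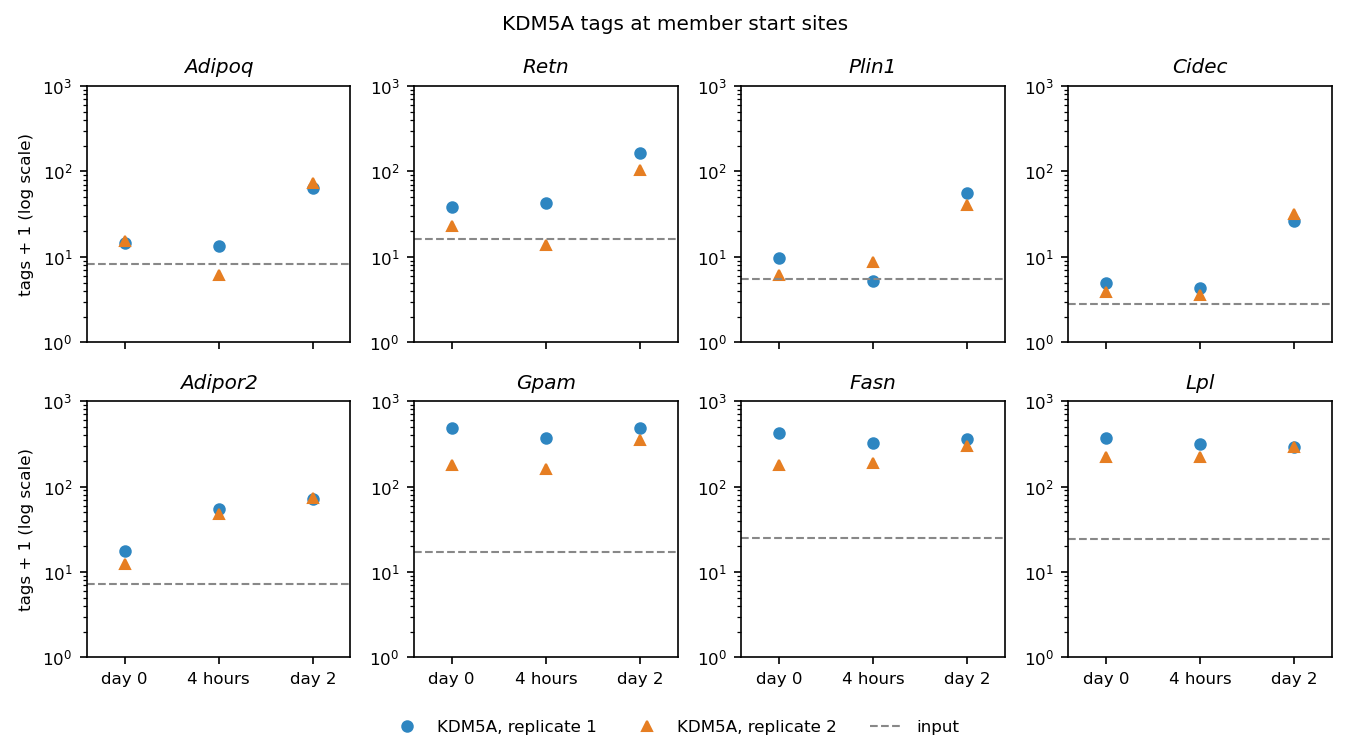
KDM5A tags plus 1 (log axis, scaled tags per start-site peak) of 8 members at day 0, 4 hours and day 2, 1 point per library, with the input library as a dashed line. Adipoq reaches 63.6 and 72.7 tags at day 2, while Gpam has 158 to 490 tags at all 3 times.

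In 12 of 28 members, or 42.9%, both day 2 libraries were above all 4 earlier ones, against 6.08% of 11818 genes. They were Adipoq, Retn, Lep, Slc2a4, Plin1, Cidec, Pnpla2, G0s2, Dgat1, Lpin1, Gpd1 and Adipor2. Lep is on that list with 20.4 and 9.28 tags at day 2, against 3.90 and 2.27 at day 0, although its RNA was below the filter. The 2 comparisons below share the day 2 libraries. Few single members passed the test over all 87525 peaks, in which the error of a peak rests on the trend over peaks. Adipor2 was called between day 2 and day 0 (2.31, SE 0.58, adjusted p 0.0401 by limma, 0.136% of all peaks higher). Adipoq (2.91, SE 0.63, adjusted p 0.0040), Plin1 (2.81, SE 0.71, adjusted p 0.0234) and Retn (2.41, SE 0.57, adjusted p 0.0123) were called between day 2 and 4 hours (0.123%). Between 4 hours and day 0 limma called 0 of 28 members (0.0606%). The median difference between day 2 and day 0 was 0.78 over the members and 0.37 over all peaks.

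These calls rest on few libraries. Without day 2 replicate 1, day 2 replicate 2 or day 0 replicate 2 Adipor2 was not called (adjusted p 1, 0.302 and 0.238), nor was it with log2(tags + 5) (0.0589), and without day 0 replicate 1 a total of 2 members was called. Between day 2 and 4 hours no member was called without day 2 replicate 1, day 2 replicate 2 or 4-hour replicate 2, and Plin1 was not called without 4-hour replicate 1 (adjusted p 0.0736). With edgeR on the recovered reads 3 members were called between day 2 and day 0, a count without its share over all peaks. Over all peaks the calls in that comparison were 119 higher and 32 lower, and 189 higher and 1084 lower with all libraries set to the same median. Between 4 hours and day 0 they were 53 higher and 0 lower, and 89 and 24 at the same median.

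Away from start sites the members had 267 KDM5A peaks, of which 4 were higher at day 2 than at day 0 (1.5%, against 0.151% of all such peaks) and none lower. Acsl1 holds 2 of them downstream of its start. Its peak at mm9 8:47560672-47564572 had 16.6 and 11.4 tags at day 0, 28.5 and 20.7 at 4 hours and 125 and 158 at day 2 (3.26, SE 0.58, adjusted p 1.32e-04 by limma). Its peak at 8:47569116-47570661 had 4.88 and 4.55, then 13.4 and 7.75, then 40.8 and 85.8 (3.40, SE 0.68, adjusted p 0.0018). In both Acsl1 peaks the day 2 libraries lie above all others. Gpam, which showed little change at its start site, has a further peak upstream at 19:55179675-55181309 with 13.7 and 5.11, then 33.5 and 23.2, then 52.2 and 54.1 (2.52, adjusted p 0.0300). The last of the 4, in Acacb at 5:114622742-114624619, had 45.8 and 47.2, then 50.2 and 189, then 1269 and 67.3 (2.63, adjusted p 0.0154), so that 1 day 2 library alone was high, and without day 2 replicate 1 the difference was 0.52. Without that library none of the 4 was called, without day 2 replicate 2 the Acacb peak and the first Acsl1 peak were, and without day 0 replicate 2 all but the Gpam peak were.

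KDM5C ChIP exists for day 2 only, so it allows no comparison between times. Of the 40 genes 17 had a start-site peak, and all 17 had more tags than input in both libraries. So did all 2296 genes with such a peak, and as only regions listed as KDM5C peaks were looked at, this does not set the members apart. The member medians were 57.7 and 23.4 tags, against 27.2 and 12.3 over those genes, and 2.70 against 1.80 in input. Retn (8:3653940-3660409) had the most, with 377 and 180 tags and 27.9 in input. Adipor2 (6:119367803-119369996) had 166 and 73.8, with 9 in input, and Adipoq (16:23144044-23147129) had 163 and 94.7, with 11.7 in input. Lipe (7:26173327-26175263) had 156 and 80.0, and Acsl1 (8:47554296-47555958) 102 and 45.5. The 2 libraries hold 2.95 and 8.13 M tags, and replicate 1 has the higher scaled value in every member with a start-site peak except Acaca and Gpam. Gpam, high in KDM5A, had 23.8 and 24.6 KDM5C tags, and Fasn had 17.0 and 7.38. Start-site peaks in all 3 tables, H3K4me3, KDM5A and KDM5C, were present for 13 of the 40 genes.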

How the data were processed

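RNA was measured in 12 libraries, H3K4me3 in 12, KDM5A in 6, KDM5C in 2 and input chromatin in 1, of 34 samples; the other input sample has no column and was not analysed here. Bowtie2 0.12.8, Subread, DESeq2, STAR, HOMER and mm9 are named in the submitters' processing notes. The RNA values are log2 of tags normalized by the authors, as deposited, with an offset not given in the sources used here, so RNA depth is unknown. The ChIP values are a signal, tags per peak scaled by the authors to 10000000 tags, as deposited.

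Per the labels' protocols, ChIP cells were crosslinked first by DSG (0.2 mM, 45 min), then by formaldehyde (1%, 10 min). RNA rows were named from a reference table (17253), from the peak tables (144) or not at all (118). One limma 3.58.1 fit (R 4.3.3) was made per assay over all its libraries, two-sided, with Benjamini-Hochberg adjustment over all features and a threshold of 0.05. RNA rows needed 1 or more in 2 libraries, and ChIP was tested as log2(tags + 1), which understates changes of low peaks. The KDM5A reads came out whole within 0.1 in 100% of values, and edgeR 4.0.16 was run on them as an alternative. A start-site peak holds the start or has an edge within 1000 bp of it, and the highest was used. An exact permutation test of 2 against 2 libraries cannot go below 0.333, so none was run. Scripts were tested on simulated data.

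Replicates of the same number deviate together in RNA (correlations 0.381 to 0.657 over 15 pairs of groups) and in H3K4me3 (0.504 to 0.790 over 15), but not in every pair of KDM5A groups (0.047 to 0.333 over 3). The labels number the libraries by experiment but do not say that libraries of equal number were handled together. That they pair is read from these correlations, and the blocked fit is given where it changes a call. Alternatives were the replicate block, another pseudocount, other filters, equal medians, the compared groups alone, the peak nearest the start and each library left out.

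The members and lists were chosen with earlier results of these data known. Values in every library are given for up to 4 members of a role with the smallest p between day 2 and day 0 in shLuc cells, for members that did not pass there and for those called between shKdm5ABC and shLuc cells, and of other lists for the 2 with the smallest p and any called between those cells.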

Additional observations from a re-analysis of the deposited data

Results flagged for a closer look

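In 12 members the difference between shKdm5ABC and shLuc cells was lower at day 2 than at day 0, by limma's test of the difference of the 2 effects with the replicate number as a block. That difference was -3.08 for G0s2, -2.54 for Cd36, -1.96 for Fabp4, -1.60 for Agpat2, -1.44 for Lpin1, -1.27 for Lipe, -1.20 for Pcx, -1.11 for Car3, -0.95 for Fasn, -0.87 for Fitm2, -0.84 for Adipor2 and -0.68 for Plin4, all on the log2 scale. Without the block none of the 12 was called, and the smallest adjusted p was 0.111, for Cd36. The shKdm5ABC day 0 replicate 2 library, in which these genes were high, enters every one of these differences, and without it the median of the difference over the 35 tested members was -0.32, against -0.87 with it.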

How the results depend on the processing

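With the replicate number as a block, members called between shKdm5ABC and shLuc cells numbered 6 at day 0 (4.38% of all rows higher and 5.05% lower). They numbered 4 at 4 hours (4.58% and 5.10%) and 13 at day 2 (13.9% and 14.2%). The difference of effects called 12 (4.76% and 2.91%), and 4 hours minus day 0 in shKdm5ABC cells called 16 (29.9% and 31.1%). In H3K4me3 the block gave 17 for Control_4h minus Control_D0 (59.2% of all peaks higher), 6 for Control_D2 minus Control_D0 (8.29% higher and 7.14% lower) and 12 for KDM5_KD_D2 minus KDM5_KD_4h (48.9% higher and 1.72% lower). In KDM5A, replicates of the same number deviated together less (correlations 0.047 to 0.333). There the block gave 1 at 4 hours (0.805% of all peaks higher) and 4 at day 2 minus day 0 (0.700%), among them Adipoq, Plin1 and Retn. With all libraries at the same median, day 2 shKdm5ABC minus shLuc gave 2 (710 higher and 567 lower over all rows). Control_4h minus Control_D0 gave 2 (512 and 13 over all peaks), KDM5_KD_D0 minus Control_D0 6 (1014 and 126) and KDM5_KD_D0 minus Control_D2 4 (1060 and 96). KDM5A day 2 minus day 0 gave 2 (189 and 1084 over all peaks). That last comparison gave 2 with peaks of at least 20 tags and 3 with edgeR. KDM5A peaks away from start sites, tried after seeing the data, gave 4 called, 7 with log2(tags + 5), 7 at the same median, 19 with the block and 8 with edgeR. These counts, and those with at least 20 tags or edgeR, have no share over all peaks beside them. They show only how the member count moves. The causes were not tested.

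Leaving out 1 library at a time, RNA counts between shKdm5ABC and shLuc cells ranged from 0 to 4 at day 0, 0 to 0 at 4 hours and 0 to 3 at day 2, and from 0 to 1 for the difference of effects. They ranged from 7 to 16 for 4 hours minus day 0 in shKdm5ABC cells, 8 to 11 in shLuc cells, 28 to 29 for day 2 minus day 0 in shKdm5ABC cells and 29 to 31 in shLuc cells. In H3K4me3 they ranged from 5 to 10 for Control_4h minus Control_D0, 9 to 12 for KDM5_KD_D0 minus Control_D0, 5 to 7 for KDM5_KD_D0 minus Control_D2, 15 to 16 for KDM5_KD_4h minus Control_D0, 14 to 19 for KDM5_KD_D2 minus Control_D0, 12 to 16 for KDM5_KD_4h minus Control_4h, 12 to 17 for KDM5_KD_D2 minus Control_D2, 1 to 4 for KDM5_KD_D2 minus KDM5_KD_4h and 1 to 1 for Control_D2 minus Control_D0. KDM5A counts ranged from 0 to 0 at 4 hours minus day 0, 0 to 2 at day 2 minus day 0, 0 to 2 at day 2 minus 4 hours and 0 to 6 away from start sites.

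The 201 called member values gave 1807 values under these alternatives, of which 1613 kept direction and call, 194 kept direction only and 0 reversed. Only called values were followed. The block, the filters and the compared groups alone leave a difference itself unchanged, so those alternatives could not reverse a sign. Of the 194, 146 came from leaving out 1 library and 38 from equal medians. The lone library left in a group is assumed to vary like the others. Counts with 1 library left out have no share over all features beside them and show only how a member count moves. The planned edgeR fit of H3K4me3 was not run.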

Other observations

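A pair of genes of the brown adipocyte list moved in opposite directions. Elovl3, a fatty acid elongase, rose at day 2 in shLuc cells (4.10, SE 0.28) and was lower in shKdm5ABC than in shLuc cells at day 2 (-1.57, SE 0.28, adjusted p 0.0100 by limma). Ppargc1a, a coactivator of mitochondrial genes, fell at day 2 in shLuc cells (-2.62, SE 0.35) and was higher in shKdm5ABC cells at day 2 (1.40, SE 0.35, adjusted p 0.0365). Dio2, the type II deiodinase, was higher there only with the replicate block (1.43, adjusted p 0.0686, or 0.0243 with the block). The summed list was at 54.0 to 74.6 tags per kb in shKdm5ABC cells and 40.8 to 56.8 in shLuc cells at day 2, with Ucp1 and Cox8b below 1 in every library.

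Of the macrophage list, Cd68 was also higher in shKdm5ABC cells at 4 hours (1.28, adjusted p 0.0334 by limma), and Cd14 at day 2 only with the replicate block (1.38, adjusted p 0.0518, or 0.0079 with it). The endothelial list summed to 19.8 to 28.4 tags per kb in shKdm5ABC cells and 22.2 to 31.3 in shLuc cells at day 2, and Egfl7 was higher at day 0 only with the block (0.96, adjusted p 0.18, or 0.0074). The muscle list summed to 21.7 to 47.0 tags per kb in shKdm5ABC cells and 12.2 to 23.2 in shLuc cells at day 0. At 4 hours Rarres2 was higher (1.62, adjusted p 0.0090) and Lipa lower (-1.04, adjusted p 0.0058) in shKdm5ABC cells.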
